A study of Mus musculus with 190 samples.

Results

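Killer cell lectin-like receptors are a family of C-type lectin-like proteins that natural killer (NK) cells and some other leukocytes carry on their surface. They were chosen here as the protein-coding rows of the deposited count table whose symbol begins with Klr followed by a letter from a to k and a number (the Ly49, NKG2, NKR-P1 and related families). The table lists 55414 genes, of which 27 met this rule, and 23 of the 27 had a mean of 0.2 CPM (counts scaled to library size) or more over the 20 groups of libraries. All 27 lie on chromosome 6. The 23 genes are described below by group, by day and by dermatitis score.

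RNA was measured in whole blood of male wild-type NC/Nga mice, an inbred strain known for an eczema-like skin disease that appears outside specific-pathogen-free rooms. In 9 conventionally housed cohorts, 10 libraries each came from a first sampling on day 2, 5, 9, 12, 16, 19, 23, 26 or 30 (cohorts 1 to 9 in that order) and 10 from a second sampling, on day 44 in the odd-numbered cohorts and on day 40 in the even-numbered ones. A control cohort kept specific-pathogen-free (SPF) gave 5 libraries on day 16 and 5 on day 44, all with a dermatitis score of 0. Age is not given in the sources used here, no mouse carried a transgene, and nothing in the labels says whether a replicate number marks the same mouse at both samplings. First sampling day and cohort cannot be told apart, and each housing comparison rests on 1 SPF cohort. The p-values below therefore measure the spread between libraries and not that between cohorts.

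The receptors fall into inhibitory forms, which signal through tyrosine motifs in their own tails, and activating forms, which borrow adaptors such as DAP12 (Tyrobp) and DAP10 (Hcst). Many recognise MHC class I or class I-like molecules on other cells, so that an NK cell weighs inhibitory against activating signals before it kills. Most members mark NK cells and subsets of T cells. Ly49Q (Klra17) and Ly49B (Klra2) are exceptions, known from myeloid cells, and Ly49Q also from plasmacytoid dendritic cells.

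Per length, in the deposited TPM values (transcript abundance scaled to gene length and library size), Klra17 had the highest level of the family, at a mean of 8.03 TPM over the 20 groups. Klrk1 (NKG2D, an activating receptor for stress-induced ligands) followed at 3.70 TPM, Klrd1 (CD94, the partner chain of the NKG2 receptors) at 3.38 TPM, Klra1 (Ly49A, an inhibitory receptor for class I) at 3.36 TPM and Klra2 at 3.01 TPM. These last 4 lay close together, and their order changed with the sampling. Over the 90 libraries of the second sampling Klra2 averaged 3.70 ± 2.29 TPM, Klrk1 2.98 ± 1.58 TPM, Klrd1 2.68 ± 1.497 TPM and Klra1 2.63 ± 1.64 TPM (SD). Over the 90 of the first sampling Klrk1 averaged 4.36 ± 1.503 TPM, Klra1 4.06 ± 1.78 TPM, Klrd1 3.99 ± 1.47 TPM and Klra2 2.65 ± 1.71 TPM (SD), and at neither sampling did neighbours in the order differ by more than the spread between libraries. Klrb1c (NKR-P1C, an activating receptor) had 1.83 TPM, Klra4 (Ly49D, activating) 1.47 TPM, and Klrc1 (NKG2A, the inhibitory partner of CD94) 1.39 TPM. The other 15 described genes ran from 1.20 TPM for Klrc2 (NKG2C) down to 0.0895 TPM for Klra6. Klrb1 stood just inside the threshold, at 0.248 CPM, and Klrc3 just outside it, at 0.179 CPM. Klrg2, Klra3 and Klrh1 were lower still and are not described further.

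Several members share sequence, and their counts were split by the authors' counting. A count that was not a whole number, the mark of a split read, occurred in 91.1% of libraries for Klrb1c, 87.4% for Klra7, 80% for Klra9, 61.1% for Klra4 and 60.5% for Klra1, and in 0% for Klra17, Klrk1, Klrd1 and Klra2. In their annotated transcripts, Klrc1 and Klrc2 shared 26.7% and 20.9% of their stretches of 75 bases with other Klr genes, so the split between NKG2A and NKG2C is uncertain. The Ly49 genes also differ in number and sequence between mouse strains, and these reads come from NC/Nga, while the counting used the reference build GRCm39. The pseudogene Klra13-ps, which the rule leaves out, took 4.96 CPM, more than Klra7 (2.90 CPM), for which it is the Klr gene with the most shared stretches.

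On GRCm39, the build of the count table, Klra17 spans chr6:129808117-129853635, Klra2 chr6:131196186-131224325, Klrk1 chr6:129587286-129600827 and Klra1 chr6:130340880-130363837, all on the minus strand. Promoters of these 4 members are shown because the data below separate Klra17 and Klra2 from Klrk1 and Klra1. Each run covers 250 bases before to 50 bases after the RefSeq start on build GRCm38.p6, minus strand, 5′ to 3′: chr6:129876623-129876922 for Klra17, chr6:131247313-131247612 for Klra2, chr6:129623815-129624114 for Klrk1 and chr6:130386825-130387124 for Klra1. Capitals mark matches, on either strand, to GAGGAA (ETS family, PU.1 type), TTNNGNAA (C/EBP family), TGTGGT (RUNX family) or GGTGTGA (T-box family).
Klra17: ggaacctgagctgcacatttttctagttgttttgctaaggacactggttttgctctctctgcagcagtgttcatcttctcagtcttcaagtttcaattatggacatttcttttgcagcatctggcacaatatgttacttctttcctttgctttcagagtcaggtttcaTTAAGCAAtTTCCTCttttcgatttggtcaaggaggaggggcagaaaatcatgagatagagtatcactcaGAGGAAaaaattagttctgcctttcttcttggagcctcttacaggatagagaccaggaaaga
Klra2: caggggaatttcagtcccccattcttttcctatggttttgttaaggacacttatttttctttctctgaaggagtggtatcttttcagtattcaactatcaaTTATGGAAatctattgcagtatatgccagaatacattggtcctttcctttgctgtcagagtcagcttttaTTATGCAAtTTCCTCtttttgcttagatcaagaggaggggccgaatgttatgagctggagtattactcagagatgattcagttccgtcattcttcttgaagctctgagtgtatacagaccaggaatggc
Klrk1: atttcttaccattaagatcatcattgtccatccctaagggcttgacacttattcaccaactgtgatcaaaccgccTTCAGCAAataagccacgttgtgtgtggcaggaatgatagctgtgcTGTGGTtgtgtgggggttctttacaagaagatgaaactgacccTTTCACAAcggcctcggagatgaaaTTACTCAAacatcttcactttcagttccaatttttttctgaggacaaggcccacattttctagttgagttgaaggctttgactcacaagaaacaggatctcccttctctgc
Klra1: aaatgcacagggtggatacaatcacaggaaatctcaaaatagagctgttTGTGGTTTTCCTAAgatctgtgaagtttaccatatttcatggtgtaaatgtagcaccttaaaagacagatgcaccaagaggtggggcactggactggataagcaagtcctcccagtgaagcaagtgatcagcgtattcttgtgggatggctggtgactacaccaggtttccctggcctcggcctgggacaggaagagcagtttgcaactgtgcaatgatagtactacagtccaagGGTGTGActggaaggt
Over the RefSeq table of 32851 promoters of this length, 28.3% held GAGGAA, 40.7% TTNNGNAA, 16.8% TGTGGT and 3.98% GGTGTGA. Of the 20 described members with an entry, 13 held the first, 17 the second, 7 the third and 1, Klra1, the fourth. Klra17 and Klra2 each carried a TTNNGNAA match separated by 1 base from a GAGGAA match on the other strand, seen in capitals as a long and a short block in the middle of each run. This arrangement (TTNNGNAANTTCCTC), searched for after the sequences had been read, was found in 0.0122% of promoters, 4 in all: those of Klra17 and Klra2 and those of Nadk and A630001O12Rik. Matches describe letters only and are not shown to be bound.

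Total counts ran from 21444129 to 71967299 per library (median 36448181), which put the median count of the 8 genes with the highest TPM between 222 and 1022.5 reads. The share of globin and mitochondrial rRNA counts differed between sets of cohorts, with medians of 7.83% and 15.4% in cohorts 6 to 9, 3.58% and 6.92% in cohorts 1 to 4, and 3.59% and 7.38% in SPF libraries. One SPF library of day 16, replicate 3, held 45.3% globin. Markers of neutrophils, monocytes, B cells, T cells, NK cells and erythroid cells were looked up for the label of whole blood. In conventional and SPF libraries of either sampling, at most 1 gene of each list had no count over all libraries of the set. At this depth that is a weak check of the label. In bulk blood, fewer cells of a type and less RNA per cell cannot be told apart, which holds for every result below.

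Conventional housing was set against SPF housing on 2 days. On day 44, Klra17 and Klra2 were the members that rose, while none of the NK cell type receptors passed the test. Klra17 ran from 7.93 to 86.9 CPM with a median of 43.1 in the 50 conventional libraries, against 16.1, 13.3, 11.6, 12.7 and 14.5 CPM in the 5 SPF libraries. The groups overlapped only through the lowest conventional libraries. The mean was 44.6 ± 17.3 CPM in conventional mice (SD, n = 50) and 13.7 ± 1.7 CPM in SPF mice (SD, n = 5). This was a log2 difference of 1.66 ± 0.30 (SE; edgeR's quasi-likelihood test over all genes, Benjamini-Hochberg adjusted p = 8.9e-05). Klra2 ran from 7.03 to 41.5 CPM (median 23.3) in conventional mice, against 9.51, 10.2, 6.65, 7.30 and 11.6 CPM in SPF mice. Its log2 difference was 1.35 ± 0.27 (edgeR adjusted p = 0.00027).

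Of the 23 members, 2 were called higher and 0 lower on day 44, where 11.5% of 16017 genes tested were called higher and 10.9% lower (22.4% in all). The other 21 had log2 differences between -1.25 and 0.56, of which 18 were below 0 and none passed the test, and 5 of the 23 members had an unadjusted p under 0.05 in edgeR. Klrk1, for example, ran from 9.84 to 32.7 CPM (median 21.1) in conventional mice, against 23.2, 21.5, 17.2, 22.3 and 28.05 CPM in SPF mice, a range that held all the SPF values. Klrb1c averaged 11.8 ± 2.8 CPM in conventional mice (SD, n = 50) and 15.3 ± 2.8 CPM in SPF mice (SD, n = 5), a log2 difference of -0.40 ± 0.16 that edgeR did not call (adjusted p = 0.062). The rise of Klra17 and Klra2 came with a rise of 10 of 10 neutrophil markers (median log2 3.32), and the summed neutrophil markers ran from 359.7 to 15306 CPM in conventional and from 390 to 736 CPM in SPF libraries of day 44. Of the 7 plasmacytoid dendritic cell markers tested, 0 rose and 1 fell. The part of neutrophil content in the rise was not tested.

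On day 16 the conventional mice were those of cohort 5. Klra17 ran from 9.79 to 30.7 CPM (median 15.7) in these 10 libraries, against 6.58, 11.4, 8.11, 5.48 and 8.60 CPM in SPF mice. The groups overlapped between 9.79 and 11.4 CPM. Its log2 difference of 1.11 ± 0.24 was the 1 call among the members (edgeR adjusted p = 0.022), where 0.557% of 15798 genes were called higher (0.747% in all). Without SPF replicate 1, 4 or 5 the difference was 1.04 ± 0.27, 1.00 ± 0.26 and 1.11 ± 0.28 and was no longer called (edgeR adjusted p = 0.056, 0.13 and 0.12). With no filter on low counts it was not called either (1.09 ± 0.25, edgeR adjusted p = 0.06). Klra2 averaged 9.91 ± 4.34 CPM in conventional mice (SD, n = 10) and 5.36 ± 0.93 CPM in SPF mice (SD, n = 5), a log2 difference of 0.88 ± 0.25 that missed the threshold in edgeR (adjusted p = 0.075) and passed it in DESeq2 (adjusted p = 0.016). Of the neutrophil markers, 0 of 10 were called on that day (median log2 0.99). The other 21 members all had a log2 difference above 0, between 0.05 and 0.66, and neither edgeR nor DESeq2 called any of them (3 of the 23 members had an unadjusted p under 0.05 in edgeR).

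Cohort 5 and the SPF cohort were sampled on the same 2 days, so the change over time can be compared between housings. In cohort 5, Klra17 averaged 53.7 ± 18.1 CPM on day 44 and 17.3 ± 6.7 CPM on day 16 (SD, n = 10 each), a log2 change of 1.599 ± 0.190 (edgeR adjusted p = 3.4e-06). Klra2 averaged 25.2 ± 7.3 CPM on day 44 and 9.91 ± 4.34 CPM on day 16, a change of 1.32 ± 0.19 (adjusted p = 2.4e-05). Klrb1c fell by 0.57 ± 0.10 on the log2 scale (edgeR adjusted p = 0.00016), and Klra10 (a Ly49 gene of low level) fell by 0.94 ± 0.32 (edgeR adjusted p = 0.041), a call that was lost with no filter on low counts (edgeR adjusted p = 0.067) and without SPF replicate 2, 4 or 5 (edgeR adjusted p = 0.053, 0.051 and 0.051). These 2 rises and 2 falls stand beside 9.06% of all genes called higher and 5.72% called lower (14.8% in all). With the globin and mitochondrial rRNA shares as covariates, 2 members rose and 13 fell in cohort 5, where 9.74% of all genes rose and 4.44% fell, and Klrk1 was among the falls (-0.49 ± 0.11, edgeR adjusted p = 0.0014). Between day 44 and day 16 of cohort 5, 10 of 10 neutrophil markers rose (median log2 2.06), and the median shares of globin and mitochondrial rRNA were 7.03% and 15.9% on day 44 and 3.72% and 10.1% on day 16. Their part in the changes was not tested. In SPF mice, Klra17 was also higher on day 44, at 11.6 to 16.1 CPM, than on day 16, at 5.48 to 11.4 CPM, and the 5 libraries of each day did not overlap. The SPF change of 0.77 ± 0.27 did not pass the test (edgeR adjusted p = 0.74), and neither edgeR nor DESeq2 called any gene in SPF mice (0%; 943 of 15798 genes had an unadjusted p under 0.05 in edgeR). Klra2 in SPF mice, at 6.65 to 11.6 CPM on day 44 and 4.18 to 6.55 CPM on day 16, likewise had no overlap and a change of 0.76 ± 0.27 (edgeR adjusted p = 0.74). The difference between the housings in their change over time was 0.83 ± 0.32 for Klra17 and 0.55 ± 0.33 for Klra2, and edgeR called no gene in that test (0%; 1767 genes and 2 of the 23 members had an unadjusted p under 0.05). DESeq2 called 50 genes in it, no member among them.

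**Figure D1:**
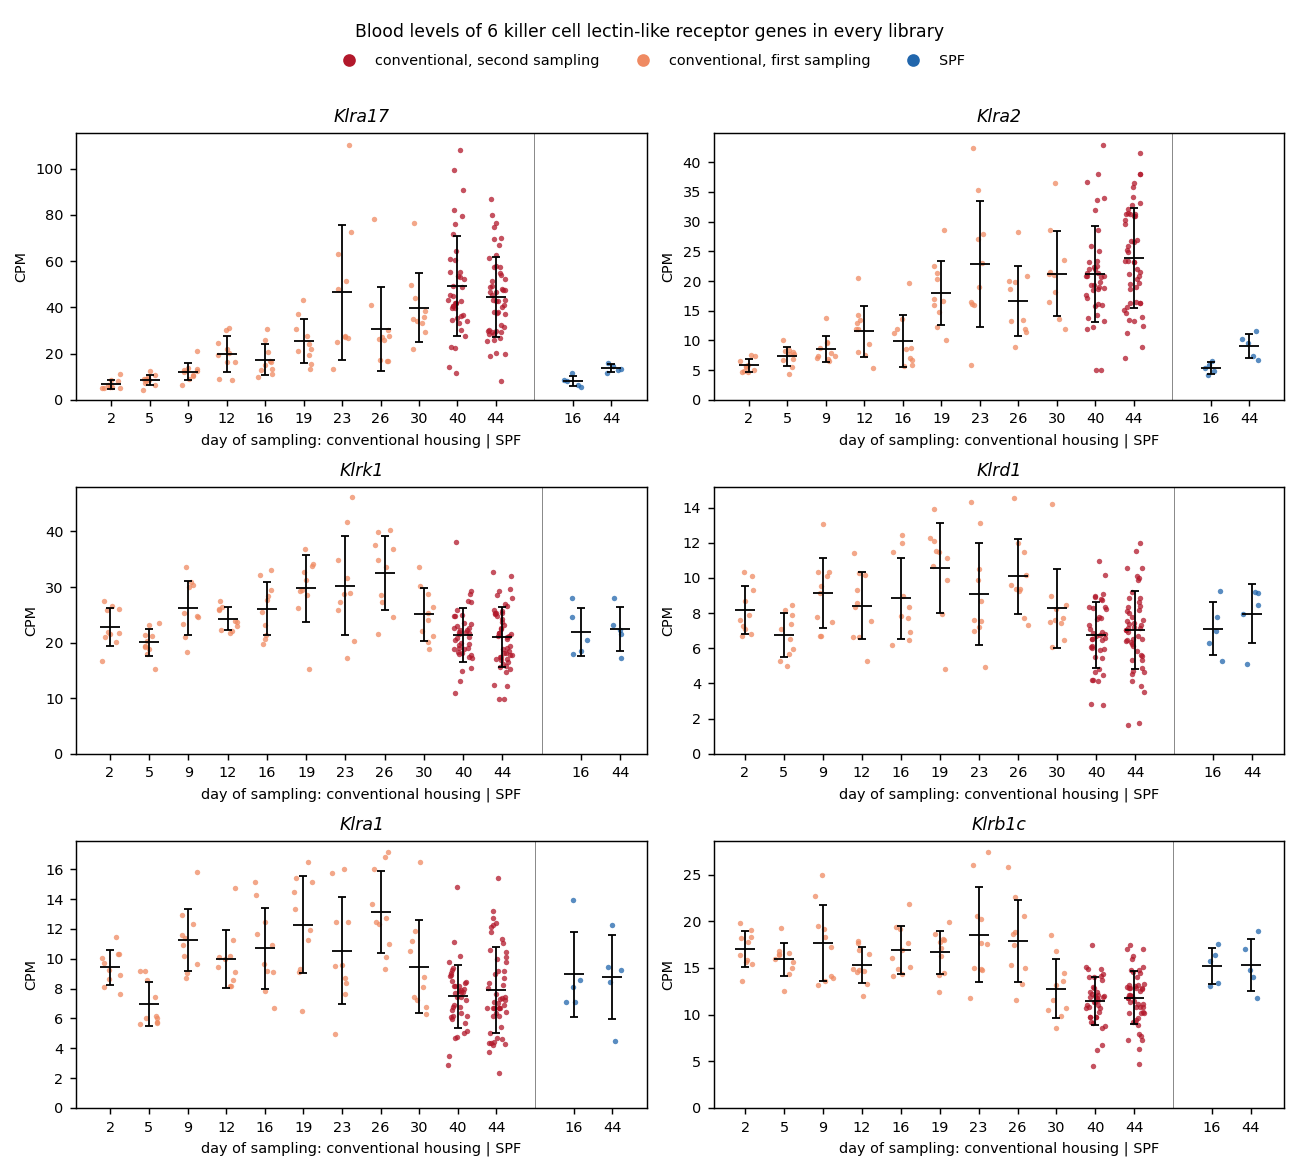
CPM of 6 receptor genes in every library (points) against day of sampling, with the mean and SD of all libraries of a day and housing (bars): conventional libraries by day, then SPF libraries right of the line. Klra17 and Klra2 climb across the first-sampling days and stay high on days 40 and 44. Klrk1, Klrd1, Klra1 and Klrb1c have their highest conventional means between days 19 and 26. The lowest conventional means of Klrk1 and Klra1 are those of day 5, at 20.03 and 6.97 CPM, and Klrb1c has its lowest on day 40 or 44.

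Over the 9 first-sampling days, both myeloid-type genes climbed. In cohorts 1, 2 and 3 (days 2, 5 and 9) Klra17 averaged 6.68 ± 1.98, 8.59 ± 2.27 and 12.2 ± 3.8 CPM, in cohorts 4, 5 and 6 (days 12, 16 and 19) 19.7 ± 7.7, 17.3 ± 6.7 and 25.4 ± 9.4 CPM, and in cohorts 7, 8 and 9 (days 23, 26 and 30) 46.5 ± 29.3, 30.7 ± 18.2 and 39.8 ± 14.9 CPM (SD, n = 10 each). The spread between libraries widened with the mean, and on day 23 the lowest library had 13.1 CPM and the highest 110 CPM. Klra2 had its lowest mean on day 2, at 5.80 CPM, and its highest on day 23, at 22.9 CPM. The linear slopes were 0.96 ± 0.08 log2 units per 10 days for Klra17 (edgeR adjusted p = 3.7e-18) and 0.69 ± 0.06 for Klra2 (adjusted p = 4.1e-16). Both slopes were also found in score 0 libraries alone, at 0.86 ± 0.09 and 0.60 ± 0.08. Over the same days 10 of 10 neutrophil markers were called upward (median 1.29 log2 units per 10 days) and 9 of 10 B cell markers downward (median -0.28), and their part in the slopes was not tested.

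In the same libraries most NK cell type receptors were lowest on day 5 and highest between days 19 and 26. Klrk1 averaged 20.03 ± 2.51 CPM on day 5 and 32.5 ± 6.6 CPM on day 26, and Klrc2 had 8.98 CPM on day 5 and 19.2 CPM on day 23. Klra4 had 4.45 CPM on day 5 and 9.63 CPM on day 26. Among the 23 members 13 differed among the days, against 61.9% of 16420 genes, and 11 had a called slope, all upward, against 26.5% of genes called upward and 29.6% downward (56.1% in all). Beside Klra17 and Klra2 these were Klrk1 (0.15 ± 0.04 per 10 days), Klrc2 (0.27 ± 0.05), Klra4 (0.23 ± 0.05), Klri2 (0.18 ± 0.04), Klra7 (0.16 ± 0.05), Klrb1f (0.20 ± 0.06), Klra1 (0.12 ± 0.05), Klri1 (0.28 ± 0.10) and Klrb1b (0.10 ± 0.04). Within cohorts 1 to 4 (days 2 to 12) 4 slopes were called, those of Klra17 (1.48 ± 0.18), Klra2 (0.87 ± 0.15), Klrc2 (0.44 ± 0.13) and Klri2 (0.40 ± 0.12), where 13.2% of all genes were called upward and 14.2% downward. Within cohorts 6 to 9 (days 19 to 30) edgeR called 0 members, where 0.953% of all genes were called upward and 0.463% downward: Klra17 had 0.37 ± 0.29 and Klra2 0.10 ± 0.21 per 10 days, and Klrk1 (-0.19 ± 0.14), Klrc2 (-0.29 ± 0.14), Klra4 (-0.09 ± 0.20) and Klra1 (-0.25 ± 0.17) had slopes below 0. With the globin and mitochondrial rRNA shares as covariates, Klra17 and Klra2 kept slopes of 0.84 ± 0.11 and 0.54 ± 0.09. No other member was called upward in that fit, and the slopes of Klrk1, Klra1 and Klra7 turned below 0. There 3 members were called downward, among them Klrd1 (-0.15 ± 0.05), where 18% of all genes were called upward and 16.8% downward.

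Second and first sampling were compared in a model with cohort as a term over the 180 conventional libraries. The comparison split the family in 2 directions. Klra17 ran from 7.93 to 108.03 CPM (median 43.1) at the second sampling and from 4.25 to 110 CPM (median 17.1) at the first. Its mean was 46.6 ± 19.4 CPM at the second sampling and 23.0 ± 18.4 CPM at the first (SD, n = 90 each), a log2 difference of 1.26 ± 0.11 (edgeR adjusted p = 1.1e-19). Klra2 averaged 22.7 ± 8.3 CPM at the second sampling and 13.5 ± 8.0 CPM at the first, a difference of 0.88 ± 0.09 (edgeR adjusted p = 2.4e-16). All ranges overlapped between the samplings. Of the 23 members 2 rose and 16 fell, where 32.9% of 17027 genes rose and 31.3% fell (64.2% in all). The median over the members was -0.35, against -0.01 over all genes tested.

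Among the receptors with an activating role, Klrk1 averaged 21.2 ± 5.1 CPM at the second sampling and 26.3 ± 6.2 CPM at the first (SD, n = 90 each). It ran from 9.84 to 38.02 CPM (median 21.1) at the second and from 15.2 to 46.2 CPM (median 25.8) at the first. Its log2 difference was -0.31 ± 0.05 (edgeR adjusted p = 7.3e-09). Klrb1c fell to 11.7 ± 2.7 CPM at the second sampling, against 16.5 ± 3.5 CPM at the first, a difference of -0.50 ± 0.05 (edgeR adjusted p = 1.3e-18). Klra4 fell by 0.39 ± 0.07 on the log2 scale, Klrc2 by 0.28 ± 0.06 and Klra8 (Ly49H, known in C57BL/6 mice as the receptor of a cytomegalovirus protein) by 0.49 ± 0.08.

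Inhibitory and partner chains moved the same way, and further members not sorted here by role did so or were not called. Klra1 averaged 7.71 ± 2.56 CPM at the second sampling and 10.4 ± 3.0 CPM at the first (SD, n = 90 each), a log2 difference of -0.42 ± 0.06 (edgeR adjusted p = 4.9e-09). Klrd1 ran from 1.63 to 12.0 CPM (median 6.90) at the second and from 4.82 to 14.5 CPM (median 8.35) at the first, a difference of -0.35 ± 0.06 (edgeR adjusted p = 2.6e-07). Klrc1 fell by 0.39 ± 0.06 on the log2 scale, Klra7 (Ly49G) by 0.38 ± 0.08, Klra9 (Ly49I) by 0.35 ± 0.07 and Klrb1b (NKR-P1B, the inhibitory receptor of Clec2d) by 0.50 ± 0.07. Klre1 and Klri2, which pair with each other on the NK cell surface, fell by 0.49 ± 0.07 and 0.30 ± 0.06. Of the genes under 1.1 CPM, Klra10 fell by 0.55 ± 0.13, Klrb1a by 0.58 ± 0.09 and Klrb1 by 0.81 ± 0.19, and all the falls in this list passed edgeR's test. Klrg1 (a receptor for cadherins) had -0.12 ± 0.08, Klrb1f -0.11 ± 0.09, Klri1 -0.17 ± 0.16, Klra5 (Ly49E) 0.01 ± 0.12 and Klra6 (Ly49F) 0.05 ± 0.14, and these 5 were not called.

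**Figure D2:**
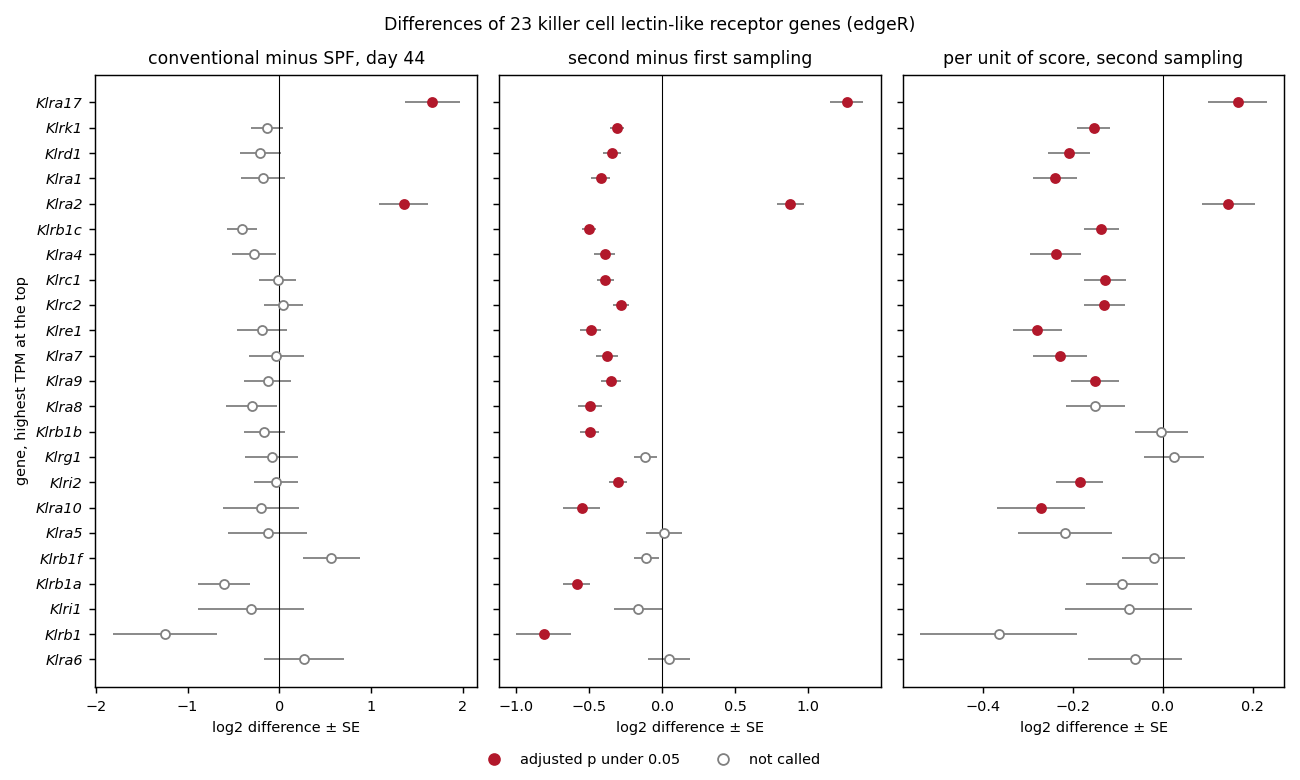
Log2 differences with SE (bars) of the 23 members in 3 comparisons, from edgeR; filled points have an adjusted p under 0.05, and each panel has its own scale. Klra17 and Klra2 lie right of 0 in all panels, and 16 members lie left of 0 and are called in the middle panel.

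The 2 directions differed in how they varied between cohorts. Klra17 was higher at the second sampling in 8 of 9 cohorts, with log2 ratios of the group means of 2.46 in cohort 1, 2.56 in cohort 2, 1.73 in cohort 3, 1.32 in cohort 4, 1.63 in cohort 5, 0.81 in cohort 6, -0.22 in cohort 7, 0.75 in cohort 8 and 0.40 in cohort 9. Cohort 7, the exception, averaged 40.0 CPM on day 44 and already 46.5 CPM on day 23. Within cohorts 1 to 4 the difference was 1.96 ± 0.14 for Klra17 and 1.32 ± 0.11 for Klra2, and within cohorts 6 to 9 it was 0.43 ± 0.15 (edgeR adjusted p = 0.027) and 0.26 ± 0.12 (edgeR adjusted p = 0.11). The test of this difference between the sets, added after the data had been seen, gave -1.57 ± 0.19 for Klra17 (edgeR adjusted p = 1.1e-10) and -1.09 ± 0.17 for Klra2 (adjusted p = 6.7e-08), and 0 of the other 21 members passed it (edgeR; 4 of the 23 members had an unadjusted p under 0.05). Of the neutrophil markers 10 of 10 were called lower in it (median -2.17), and 8 of 10 B cell markers were called higher (median 0.58); their part was not tested. Of all genes, 15.6% were called lower and 11.8% higher in that test (27.4% in all).

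The 16 receptors that fell did so in 8 or 9 of the 9 cohorts. Klrb1c was lower at the second sampling in 9 of 9 cohorts, with log2 ratios from -0.63 to -0.22, and so were Klrc1, Klra9, Klra8, Klrb1b, Klrb1a and Klrb1. Klrk1, Klrd1, Klra1, Klra4, Klrc2, Klre1, Klra7, Klri2 and Klra10 were lower in 8 of 9 cohorts. In all 9 of these genes the exception was cohort 2, whose first sampling fell on day 5, the day with the lowest first-sampling means. Of the 5 members not called, Klrg1, Klrb1f, Klri1 and Klra6 were lower in 6 cohorts and Klra5 in 4. Within cohorts 1 to 4, 16 members fell and 2 rose, where 36.2% of all genes fell and 31.7% rose. Within cohorts 6 to 9, 16 members fell and 1 rose, where 8.16% of all genes fell and 14.5% rose. Klrk1 had -0.27 ± 0.06 within cohorts 1 to 4 and -0.44 ± 0.08 within cohorts 6 to 9.

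**Figure D3:**
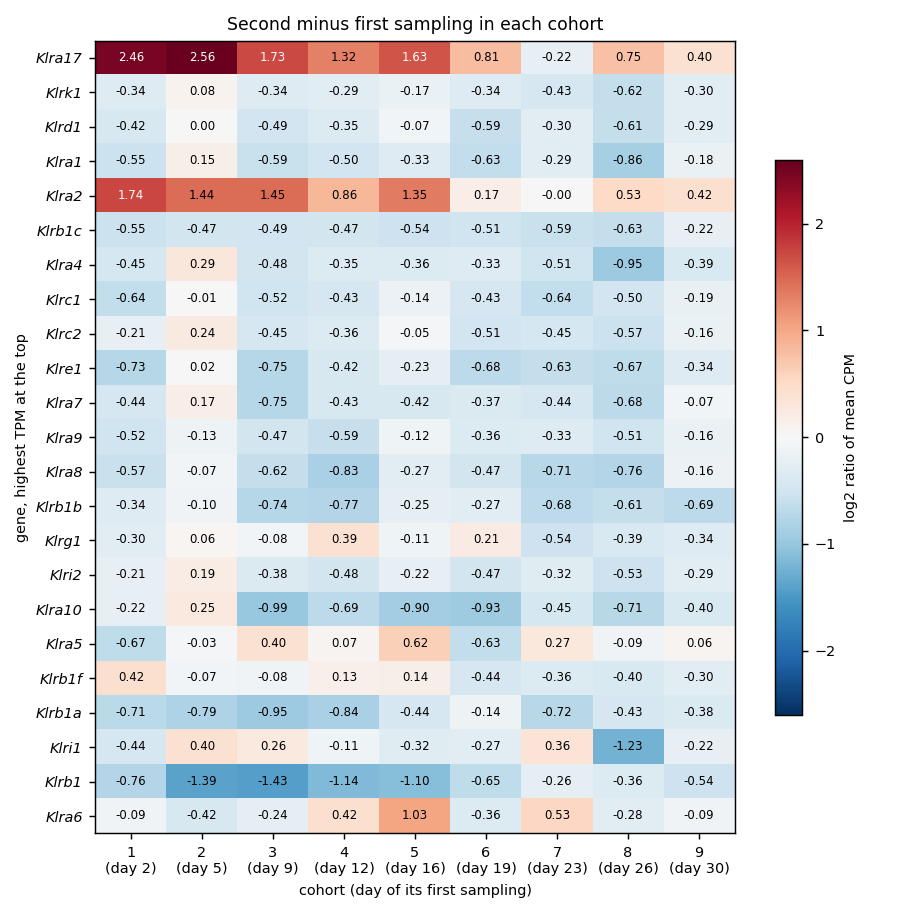
Log2 ratio of mean CPM, second over first sampling, of the 23 members (rows) in the 9 cohorts (columns, with the day of first sampling). Klra17 and Klra2 are at 2.46 and 1.74 in cohort 1 and at 0.40 and 0.42 in cohort 9, while most other rows are below 0 in 8 or 9 cohorts.

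Dermatitis score was related to expression within each sampling, with cohort in the model. At the second sampling the 90 libraries held scores of 0 (n = 7), 0.5 (n = 5), 1 (n = 11), 2 (n = 27), 3 (n = 39) and 4 (n = 1). Klrk1 averaged 24.9 ± 5.0 CPM at score 0, 22.7 ± 6.1 at 0.5, 25.4 ± 5.7 at 1, 21.6 ± 4.4 at 2 and 18.9 ± 4.3 at 3 (SD), with 18.8 CPM in the library of score 4. Its slope was -0.15 ± 0.04 log2 units per unit of score (edgeR adjusted p = 0.00062). Klrd1 averaged 8.97 ± 1.55 CPM at score 0 and 6.01 ± 1.79 CPM at score 3, with a slope of -0.21 ± 0.05 (edgeR adjusted p = 0.00029). Klra1 had 9.83 ± 2.27 CPM at score 0 and 6.66 ± 2.14 CPM at score 3, with a slope of -0.24 ± 0.05 (edgeR adjusted p = 7.4e-05). Klre1 had the steepest called slope, -0.28 ± 0.06 (edgeR adjusted p = 4.5e-05), with 4.89 ± 1.51 CPM at score 0 and 2.89 ± 1.00 CPM at score 3. The values of neighbouring scores overlapped widely for all 4 genes.

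Of the 23 members, 12 fell with score and 2 rose, where 21.8% of 15480 genes fell and 21.3% rose (43.1% in all), and the median slope was -0.15, against -0.02 over all genes. The 2 that rose were Klra17 (0.17 ± 0.07, edgeR adjusted p = 0.032) and Klra2 (0.15 ± 0.06, edgeR adjusted p = 0.038). Klra17 averaged 32.8 ± 27.3 CPM at score 0, 56.03 ± 19.99 at 0.5, 41.3 ± 17.9 at 1, 42.9 ± 17.7 at 2 and 51.5 ± 18.004 at 3 (SD), and so did not climb step by step. Without the single library of score 4, the call of Klra2 was lost (0.14 ± 0.06, edgeR adjusted p = 0.050). Within cohorts 1 to 4, 11 members fell and 0 rose, where 18.9% of all genes fell and 20.7% rose. Within cohorts 6 to 9 edgeR called 0 members and no gene of any kind (0% of 14667; 2447 had an unadjusted p under 0.05), with slopes of -0.12 ± 0.07 for Klrk1, -0.18 ± 0.09 for Klrd1 and -0.27 ± 0.11 for Klre1. With the globin and mitochondrial rRNA shares as covariates, 7 members fell and 2 rose, where 13.8% of all genes fell and 12.9% rose. With score at the second sampling 18 of 18 T cell markers and 10 of 10 B cell markers fell (median slopes -0.13 and -0.25), and 10 of 10 neutrophil and 9 of 10 erythroid markers rose (medians 0.46 and 0.37). Their part in the slopes of the receptors was not tested.

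**Figure D4:**
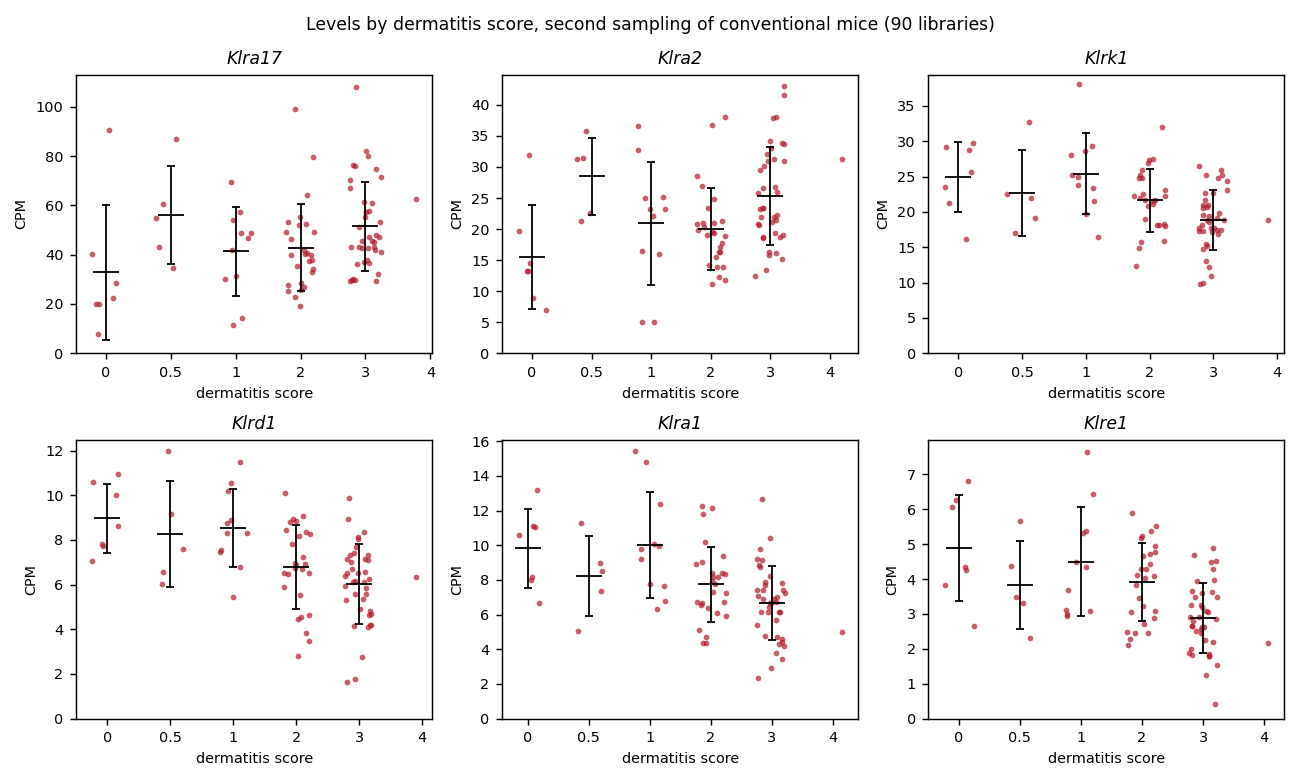
CPM of 6 members in the 90 second-sampling libraries (points) by dermatitis score, with mean and SD (bars) where a score has more than 1 library. Klrk1, Klrd1, Klra1 and Klre1 have lower means at scores 2 and 3 than at 0, and Klra17 and Klra2 spread widely at every score with more than 1 library.

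At the first sampling, days 12 to 30, scores were lower: of 60 libraries, 28 had score 0, 9 had 0.5, 12 had 1, 10 had 2 and 1 had 3. Klra17 averaged 19.8 ± 8.6 CPM at score 0, 30.3 ± 8.2 at 0.5, 29.4 ± 11.3 at 1 and 57.9 ± 26.6 at 2 (SD), with 35.2 CPM in the library of score 3. Its slope was 0.57 ± 0.12 (edgeR adjusted p = 0.0014), and that of Klra2 was 0.39 ± 0.11 (edgeR adjusted p = 0.010). Klrb1c fell by 0.19 ± 0.06 per unit of score (edgeR adjusted p = 0.032) and Klrg1 by 0.28 ± 0.10 (edgeR adjusted p = 0.039). These 2 rises and 2 falls stand beside 6.93% of 15746 genes called higher and 5.34% called lower (12.3% in all). Within cohorts 6 to 9 the slopes were 0.54 ± 0.13 for Klra17 and 0.34 ± 0.11 for Klra2, both called, and those of Klrb1c and Klrg1 were not, where 6.14% of all genes were called higher and 3.93% lower. With no filter on low counts Klrb1c and Klrg1 lost their calls as well (edgeR adjusted p = 0.051 and 0.065). At the first sampling 10 of 10 neutrophil markers rose with score (median 0.80) and 9 of 10 B cell markers fell (median -0.40). With the globin and mitochondrial rRNA shares as covariates 8 members fell with score at the first sampling, among them Klrk1 (-0.22 ± 0.06) and Klra1 (-0.28 ± 0.07), where 6.26% of all genes fell and 8% rose. The slopes of the 2 samplings were compared directly: Klra17 had a difference of -0.41 ± 0.14 and Klra2 of -0.25 ± 0.13, second minus first, and no gene passed this test in edgeR (0% of 16563; 2130 genes and 2 of the 23 members had an unadjusted p under 0.05). DESeq2 called 263 genes in it, no member among them.

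Libraries of the same group also varied together in 2 blocks. Deviations of log2(CPM + 0.5) from the group mean were correlated over the 190 libraries for the 28 pairs of the 8 genes with the highest TPM and for 32 pairs of these with a marker, with permutation p-values from 100000 permutations within groups, adjusted over the 60 relations. Klra17 and Klra2 had r = 0.86 and rho = 0.82 (permutation p = 1e-05 before adjustment, the smallest the permutations can give), and r = 0.85 without the 2 libraries farthest from the median of Klra17. The other 6 had r from 0.53 to 0.84 among themselves (rho from 0.46 to 0.81), and all 15 pairs passed. Between the 2 blocks r ran from -0.20 to 0.06 and 1 of 12 pairs passed, Klra17 with Klrb1c (r = -0.20, permutation adjusted p = 0.027; rho = -0.14, permutation adjusted p = 0.12).

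The blocks differed in the markers they went with. Klra17 and Klra2 had r = 0.88 and 0.81 with S100a8, a gene of the neutrophil marker list. With Csf1r, the growth factor receptor of monocytes, they had r = 0.56 and 0.60. Correlations with the other monocyte markers were not computed. Of the 10 monocyte markers, 4 rose and 5 fell between second and first sampling, Csf1r among the rises. With Siglech, a marker of plasmacytoid dendritic cells, Klra17 and Klra2 had r = -0.04 and 0.08, neither passing. Siglech averaged 0.88 CPM at the second and 1.05 CPM at the first sampling of conventional mice. At this low level its r values say little about these cells. The other 6 had r from 0.72 to 0.86 with Ncr1, the NKp46 receptor of NK cells (rho from 0.69 to 0.84), and from -0.26 to -0.11 with S100a8. They had r from -0.41 to -0.17 with Csf1r, where 5 of 6 passed, and from 0.12 to 0.32 with Siglech, where 4 of 6 passed. Within cohorts 1 to 4 and within cohorts 6 to 9, Klra17 with S100a8 had r = 0.89 in both, and Klrk1 with Ncr1 had r = 0.78 and 0.89. Libraries share depth and scaling, so these correlations describe the libraries and name no source of the RNA.

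**Figure D5:**
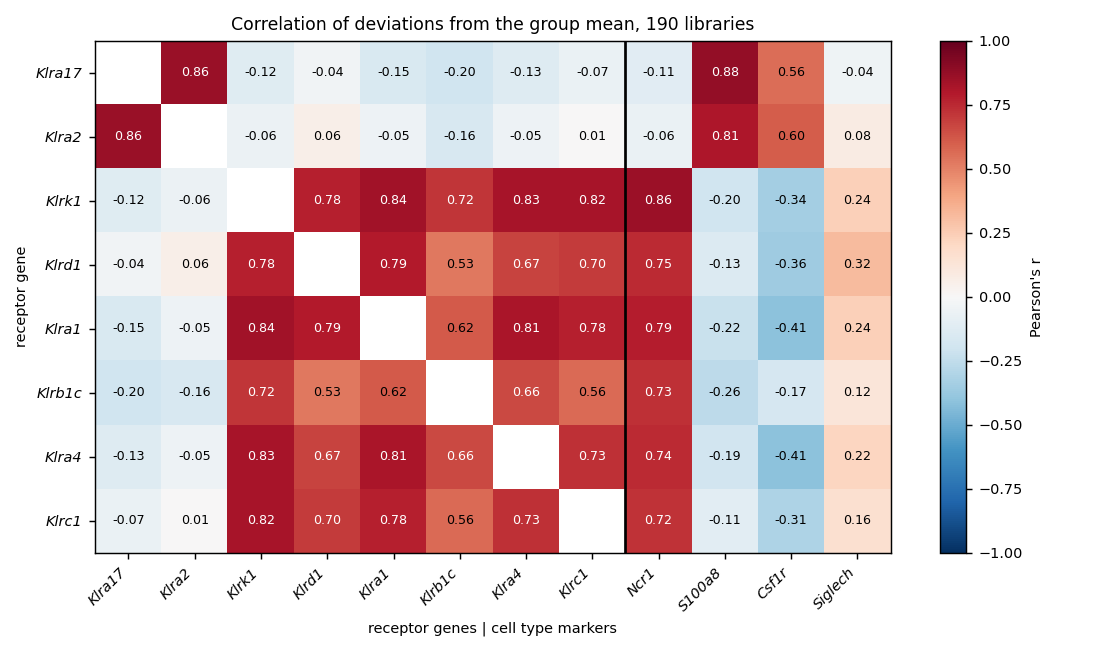
Pearson's r between deviations from the group mean of log2(CPM + 0.5), over 190 libraries, for 8 receptor genes (rows) with each other and, right of the line, with 4 cell type markers. Klra17 and Klra2 form a block of r = 0.86 that goes with S100a8, and the other 6 form a block of r from 0.53 to 0.84 that goes with Ncr1.

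Markers of blood cell types also changed. Their counts can be read against the 32.9% of all genes that rose and the 31.3% that fell between the samplings. Between second and first sampling, 10 of 10 neutrophil markers rose (median log2 1.72) and 0 fell, among them S100a9 (1.75 ± 0.18), Cxcr2 (1.55 ± 0.14) and Csf3r (1.17 ± 0.10), against a median of -0.01 over all genes. All 10 erythroid markers rose as well (median 0.69) and all 10 B cell markers fell (median -0.57). Of 18 T cell markers, 15 fell and 1 rose (median -0.16), among them Cd3g (-0.29 ± 0.04). Of 19 NK cell markers tested, 13 fell and 2 rose (median -0.24). Ncr1 averaged 12.7 ± 3.6 CPM at the second sampling and 17.8 ± 4.4 CPM at the first, a difference of -0.49 ± 0.06 (edgeR adjusted p = 2.4e-14), close to those of Klre1 and Klrb1c. Cd244a (2B4, an NK cell receptor) rose by 0.97 ± 0.09. Of 7 plasmacytoid dendritic cell markers, 1 rose and 4 fell (median -0.24), among them Ccr9 (-0.94 ± 0.08). Of 10 monocyte markers 4 rose and 5 fell, with Csf1r (0.46 ± 0.06) and Ly6c2 (0.46 ± 0.06) among the rises and Ace (-0.40 ± 0.09) among the falls. The part of cell composition in the changes of the receptors was not tested.

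Genes that work with the receptors did not share one direction. Of 19 adaptor and signalling genes tested, 11 rose and 5 fell between second and first sampling (median log2 0.16), a share called that can be read against the 64.2% of all genes, as can those of the ligands and factors that follow. Tyrobp, the DAP12 adaptor of activating Ly49 receptors that myeloid cells also use, averaged 128.1 ± 51.1 CPM at the second sampling and 74.4 ± 41.02 CPM at the first, a difference of 0.89 ± 0.09 (edgeR adjusted p = 4.3e-17). Fcer1g, another adaptor, rose by 0.60 ± 0.07, Lcp2 by 0.50 ± 0.05 and Grb2 by 0.37 ± 0.04. On day 44 Tyrobp was also higher in conventional than in SPF mice, by 1.34 ± 0.26 (edgeR adjusted p = 0.00022), a size like that of Klra2.

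Of 15 ligand genes tested, 6 rose and 4 fell between the samplings (median 0.10). The class I genes H2-D1, a ligand of several Ly49 receptors, and H2-T23, which encodes the Qa-1 molecule seen by CD94 with NKG2A, rose by 0.30 ± 0.04 and 0.38 ± 0.06, and H2-Q10 rose by 0.54 ± 0.08. Clec2i, a lectin of the family that NKR-P1 receptors bind, fell by 0.54 ± 0.06. Of 13 transcription factors of NK cell development tested, 2 rose and 5 fell (median 0.05): Eomes fell by 0.26 ± 0.06, Ets1 by 0.30 ± 0.05 and Ikzf3 by 0.41 ± 0.07, while Nfil3, needed early in NK cell development, rose by 1.47 ± 0.13. With score at the second sampling, 7 of the 13 factors fell and 1 rose, and 8 of 18 NK cell markers fell and 1 rose (median -0.10). In that test 21.8% of all genes fell and 21.3% rose (43.1% in all). Ncr1 had a slope of -0.17 ± 0.04 with score (edgeR adjusted p = 0.0013).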

How the data were processed

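Whole-blood total RNA of 190 libraries was sequenced, with stranded libraries depleted of ribosomal and globin RNA, per the labels' protocols. The authors deposited a table of expected counts per gene and a table of TPM (scaled to gene length and library size), made with DRAGEN on GRCm39 per the submitters' processing notes; the sources used here give neither its version nor the annotation. Of the deposited expected counts, 2.86% were not whole, and all were rounded for testing. Genes passing filterByExpr (minimum count 10, minimum total 15) received TMM scaling, and edgeR 4.0.16 in R 4.3.3 gave two-sided quasi-likelihood tests (robust dispersion), with Benjamini-Hochberg adjustment over all genes and a threshold of 0.05; all 23 described genes passed the filter in every comparison. The SE of a log2 value is its size divided by the square root of F. CPM use TMM library sizes of all 190 libraries. TPM served only to compare levels between genes.

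DESeq2 1.42.0, other scaling, no filter, covariates, subsets of cohorts and left-out SPF libraries were alternatives. The fits were also run on simulated data, and no result here rests on that run. The genes, lists, tests and alternatives were chosen with earlier results of these data known. The 8 genes with the highest TPM, which include Klra17 and Klra2, have values over groups; of each other list at most 4 genes with the smallest p between samplings are named, and Ncr1, S100a8, Csf1r and Siglech besides as markers. A planned comparison of protein sequences was not run. The depth of a library bounds counting error only, and repeated samples of a cohort were taken as independent.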

Additional observations from a re-analysis of the deposited data

Results flagged for a closer look

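In 14 of 160 combinations of gene and group (8 genes in 20 groups), the highest or lowest library stood apart by Dixon's 95% criterion; chance flags about 1 in 20 such tests. For Klra17 these were replicate 5 of cohort 3 on day 9 (21 CPM, next 13.7 CPM), replicate 1 of cohort 8 on day 26 (78.2 CPM, next 41 CPM) and replicate 2 of cohort 9 on day 30 (76.4 CPM, next 49.8 CPM). The same library of cohort 3 also stood apart for Klra2 (13.8 CPM, next 9.74 CPM). For Klra2, replicate 8 of cohort 2 on day 40 (43 CPM) and replicate 6 of cohort 4 on day 40 (33.9 CPM) were high as well. That library of cohort 2 was low in Klrc1 (3.36 CPM, next 5.82 CPM). Klrk1 was low in replicate 5 of cohort 6 on day 19 (15.2 CPM, next 26.3 CPM), and Klrd1 was high in replicate 3 of cohort 9 on day 30 (14.2 CPM, next 8.99 CPM). Replicate 1 of the SPF libraries of day 16 was high in both Klra1 (13.9 CPM) and Klra4 (9.00 CPM). Klra1 was also high in replicate 5 of cohort 4 on day 12 (14.7 CPM), and Klra4 in replicate 8 of cohort 6 (12.7 CPM) and replicate 2 of cohort 8 (8.88 CPM), both on day 40. No cause was tested.

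The difference between second and first sampling varied between sets of cohorts, 6 to 9 minus 1 to 4, by -1.57 ± 0.19 for Klra17 (edgeR adjusted p = 1.1e-10) and by -1.09 ± 0.17 for Klra2 (edgeR adjusted p = 6.7e-08). The sets differ in the day of first sampling and in their shares of globin and mitochondrial rRNA, which cannot be told apart here.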

How the results depend on the processing

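Counts of called members are given as alternative against main analysis. Between conventional and SPF mice on day 16 (1) there were 2 with DESeq2, 0 with no low-count filter, 0 with the replicate block and 0 to 1 without single SPF replicates (0 without replicates 1, 4 or 5). With the globin and mitochondrial rRNA shares as covariates the counts were 15 for the change in cohort 5 (4), 5 for the trend over first-sampling days (11), 9 for the score at the second sampling (14) and 10 for the score at the first (4). Within cohorts 6 to 9 they were 2 for any difference among days (13), 0 for the trend, 0 for the score at the second sampling and 2 for the score at the first. Of all genes, 2459 of 15111 differed among days within cohorts 6 to 9, against 10159 of 16420 in the main analysis. Within cohorts 1 to 4 the trend was called in 4 members. For the score at the first sampling, 2 were called with no filter (Klra17 and Klra2) and 1 with the replicate block (Klra17). Of all genes, 1833 of 29770 were called with no filter and 622 of 15746 with the replicate block, against 1932 of 15746 in the main analysis. Second against first sampling gave 17 or 18 calls under every alternative run (18). Of all genes, 10932 of 17027 were called in the main analysis and 14118 of 34008 with no filter. Within cohorts 1 to 4 it was 10820 of 15921, and within cohorts 6 to 9 it was 3574 of 15757.

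Directions reversed in 24 single-gene results. With the covariates, the housing difference on day 16 was -0.049 for Klrk1, -0.068 for Klrd1, -0.23 for Klra1, -0.17 for Klra4 and -0.17 for Klrc1, and the trend was -0.024 for Klrk1, -0.15 for Klrd1, -0.12 for Klra1, -0.10 for Klrc1 and -0.083 for Klra7. Within cohorts 6 to 9 the trend was -0.19 for Klrk1, -0.27 for Klrd1, -0.25 for Klra1, -0.095 for Klra4, -0.31 for Klrc1, -0.29 for Klrc2, -0.29 for Klra7, -0.21 for Klri2 and -0.081 for Klrb1f. Klrb1c had a trend of 0.088 in score 0 libraries alone. Klrc1 on day 44 (-0.02) turned to 0.11 against SPF in cohorts 5, 7 and 9, and ran from -0.18 to 0.066 without single SPF replicates. The cause was not tested.

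Expression gave no clear pairing by replicate number: of 95 same-numbered pairs, 19 had deviations correlated over 0.1 and 14 were best matched to their own number. Cohort 3 had 4 such best matches among 10 pairs and the SPF cohort 0 among 5. Some own matches arise by chance, and a low correlation cannot show that the numbers mark different mice. Klri1, Klrb1 and Klra6 rest on about 10 reads per library, which limits what can be called. The low-level Klra10 lost its call in cohort 5 without SPF replicate 2, 4 or 5, with no low-count filter and with the replicate block.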
